A study of Gallus gallus with 15 samples.

Results

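Testosterone was compared with its oil vehicle in 10 RNA sequencing libraries of the hen germinal disc region, 5 from each group, out of 15 libraries in the series. The other 5, from hens given corticosterone, did not enter the fit. Testosterone libraries came from White Leghorn hens that received 1.5 mg of the hormone in 0.5 ml of peanut oil, and control libraries from hens given 0.5 ml of the oil alone. Both injections were timed 5 h before the predicted ovulation, and the largest follicle (F1) was removed some 1.5 h after that, which left 3.5 h to ovulation. Each library was RNA pooled from several hens, with 8 discs per pool in the source names and 9 in the extraction protocol. Ages are not given in the labels used here. The labels alone put each library in its group. The p-values and intervals below measure the spread between pools and not between hens, and hormone levels after injection were not among the values used here.

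The germinal disc is the patch of cytoplasm on the yolk that carries the chromosomes of the oocyte, and the pieces collected can hold granulosa cells as well. In birds the female has unlike sex chromosomes, so the chromosome kept at the meiotic division before ovulation sets the sex of the chick. Testosterone acts mainly through the androgen receptor, a transcription factor that enters the nucleus when it binds hormone and regulates genes with androgen response elements. The study asked whether the hormones altered genes that govern chromosome segregation. The deposited counts carry Ensembl chicken identifiers, and 0 of the 24881 identifiers could be matched to a symbol with the reference table used here. Androgen targets, segregation genes and cell type markers were therefore not read as groups, the tissue label was not checked against markers, and genes are described by abundance. In such bulk samples, fewer cells of a type and less RNA per cell cannot be told apart.

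Total counts ran from 24769610 to 33795073 in the controls and from 25979882 to 30390157 in testosterone replicates 1 to 4, and testosterone replicate 5 had 12913729. A count was seen for 17876 to 18267 genes per control library, for 17855 to 18186 in testosterone replicates 1 to 4 and for 17032 in testosterone replicate 5. After all libraries had been thinned at random to the depth of replicate 5, the range was 16947 to 17074 genes, and replicate 5 lay inside it. The 100 most abundant genes took 26.9% ± 1.04 of the counts in controls and 26.7% ± 0.727 after testosterone (SD, n = 5, exact two-sided permutation p = 0.770, adjusted p = 0.794 over 6 library values). Total count, genes detected before and after thinning, and scores on the first 2 principal components gave exact permutation p between 0.429 and 0.794, where 0.00794 is the smallest these 10 libraries allow.

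**Figure D1:**
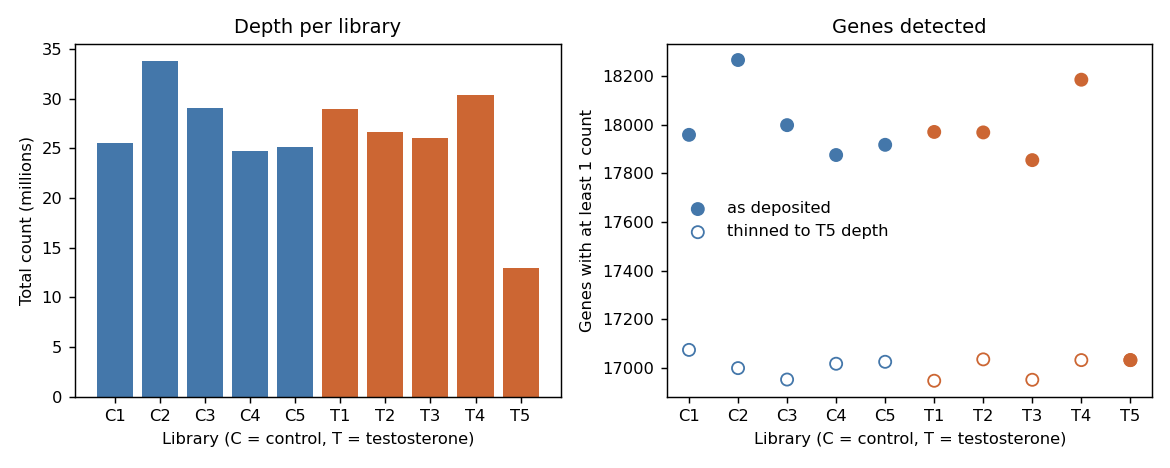
Total count per library (left) and the number of genes with at least 1 count (right) for control libraries C1 to C5 and testosterone libraries T1 to T5. Filled points are the deposited counts and open points are counts thinned to the depth of T5. T5 had the lowest total and the fewest genes, 17032, and at equal depth all libraries lay between 16947 and 17074 genes.

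The androgen comparison gave no gene past the threshold. Of the 14005 genes abundant enough to be tested, 0 (0%) had an adjusted p under 0.05 in edgeR's quasi-likelihood test, and the smallest adjusted p was 0.992. An unadjusted p under 0.05 was reached by 559 genes, or 3.99% of those tested, with 282 higher (2.01%) and 277 lower (1.98%) after testosterone. DESeq2 gave 0 genes past the threshold and 529 at an unadjusted p under 0.05, and limma voom gave 0 and 563. Values of the 5 testosterone pools lay wholly above those of the 5 control pools for 50 genes (0.357%) and wholly below for 38 (0.271%), together 0.628% of the genes tested. Were the group labels random, a gene's values would separate in this way with a probability of 0.00794. A share of about 0.05 of genes would then have an unadjusted p under 0.05. Both observed shares were below these rates.

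Abundance is given as CPM, counts brought to a common library total after scaling by edgeR's TMM factors, and 4 classes were formed on the mean of both groups. Genes over 100 CPM numbered 2153 and held 71.8% of the counts, genes of 10 to 100 CPM numbered 6584, genes of 1 to 10 CPM 3842 and genes under 1 CPM 1426. The share at an unadjusted p under 0.05 was 3.39% over 100 CPM, 4.06% at 10 to 100 CPM, 4.06% at 1 to 10 CPM and 4.42% under 1 CPM. Among genes over 100 CPM, 51 of these were higher and 22 lower, and the split was 43 and 29 with upper-quartile scaling, 42 and 24 with total counts alone, 59 and 20 with RLE scaling and 70 and 20 with DESeq2. Without testosterone replicate 5 alone it was 55 and 25, and without testosterone replicate 2 alone 49 and 37. Higher genes also outnumbered lower ones when any other single library was left out. The split was 75 and 23 without control replicate 3, 100 and 66 without control replicate 4 and 63 and 45 without testosterone replicate 4. Without testosterone replicates 2 and 5 together it was 44 and 47, and no other pair was left out. Genes under 1 CPM had 27 higher and 36 lower. The median log2 fold change was close to 0 in each class, from -0.026 under 1 CPM to -0.00010 over 100 CPM, and the middle 50% of genes over 100 CPM lay between -0.040 and 0.042. Scaling brings the bulk of genes to a common level between libraries. A median near 0 was therefore largely fixed in advance and cannot show a change common to most genes.

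**Figure D2:**
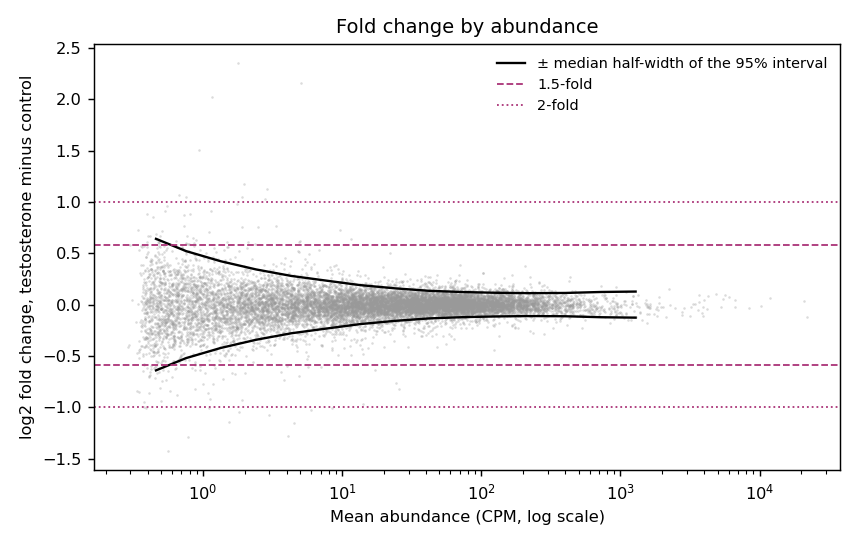
Log2 fold change of testosterone over control (vertical axis) against mean abundance in CPM on a log scale, with 1 point for each of the 14005 genes tested. Black lines mark the median half-width of the 95% interval on either side of 0, and broken and dotted lines mark 1.5-fold and 2-fold. The scatter narrows from low to high abundance, with 0 genes over 100 CPM beyond 1.5-fold in estimate.

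Large estimates occurred among genes of low abundance. An estimate beyond 2-fold in either direction was found for 21 genes, 10 higher and 11 lower, of which 15 lay at 1 to 10 CPM, 6 under 1 CPM and 0 above 10 CPM. For 0 of these 21 did the testosterone and control values separate. Over all genes tested that share was 0.628%, so 21 genes are too few to show a difference from it. An unadjusted p under 0.05 was reached by 7 of the 21, against 3.99% of all genes tested. The 21 were picked for a large estimate in the same libraries, so their p are not a separate result. An estimate beyond 1.5-fold was found for 122 genes, 5 of them at 10 to 100 CPM and 0 over 100 CPM.

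The 95% interval of each fold change says how large a difference between the pools remained compatible with the counts. Because counts were scaled between libraries, that difference is relative to the bulk of genes. A change common to most transcripts is not bounded by these intervals. The interval lay within 1.5-fold in both directions for 11957 genes (85.4%) and within 2-fold for 13635 (97.4%), and it lay wholly beyond 1.5-fold for 0 genes. Over 100 CPM, the interval was within 1.2-fold for 89.2% of genes, within 1.5-fold for 98.9% and within 2-fold for all 2153. At 10 to 100 CPM the shares were 75.1% within 1.2-fold and 98.5% within 1.5-fold. At 1 to 10 CPM they fell to 9.34% within 1.2-fold and 81.3% within 1.5-fold, with 97.9% within 2-fold. Under 1 CPM, 0 genes were bounded within 1.2-fold, 222 (15.6%) within 1.5-fold and 80.6% within 2-fold. That count of 222 is not firm. It was between 104 and 144 when any of the 9 libraries other than testosterone replicate 5 was left out and 187 without replicate 5. On the same genes and all 10 libraries, DESeq2 gave 38 and limma voom 237. Figures for this class, here and below, are those of edgeR and depend on the tool.

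The farther limit of the interval is the largest fold change, up or down, that the gene's own interval still allowed. For the median gene it was 1.12-fold over 100 CPM, 1.15-fold at 10 to 100 CPM, 1.33-fold at 1 to 10 CPM and 1.72-fold under 1 CPM. At the 95th percentile of genes it was 1.26-fold, 1.33-fold, 1.75-fold and 2.39-fold in the same order. Genes beyond that percentile can have a wide interval, a large estimate or both. In finer steps of abundance, the median limit crossed 1.5-fold at about 1 CPM, where it was 1.49-fold for the 779 genes of 1.00 to 1.78 CPM. It was 1.24-fold for the 1147 genes of 5.62 to 10 CPM. Above about 56.2 CPM more counts brought little, since the median limit stayed between 1.11-fold and 1.14-fold up to 1000 CPM.

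**Figure D3:**
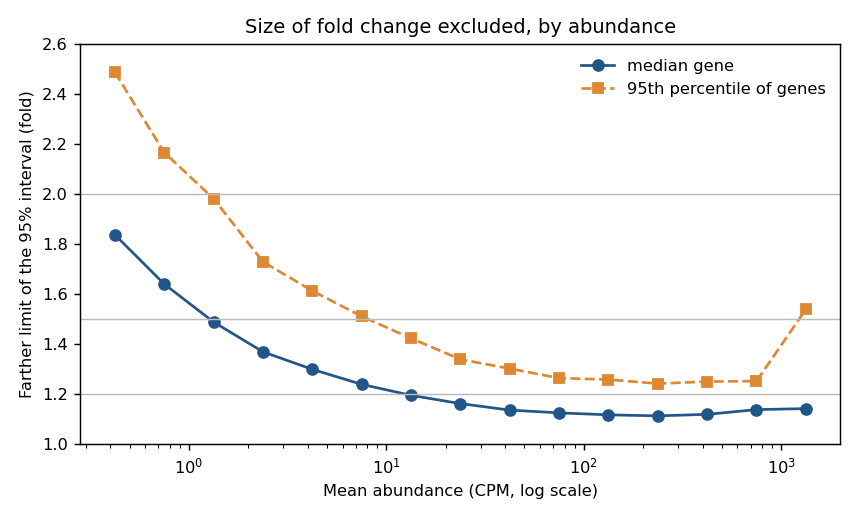
Farther limit of the 95% interval of the fold change, in either direction (vertical axis), against mean abundance in CPM on a log scale, in bins of at least 20 genes. The solid line is the median gene and the broken line the 95th percentile of genes. The median limit was 1.84-fold in the lowest bin shown, and 1.14-fold in the highest, whose 95th percentile of 1.54-fold rests on 45 genes.

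These intervals hold gene by gene. Tested with 2 one-sided tests per gene and adjusted over all genes, a difference of 1.5-fold or more was excluded at an adjusted p under 0.05 for 12421 genes (88.7%), which included 99.4% of genes over 100 CPM, 99% at 10 to 100 CPM, 87.4% at 1 to 10 CPM and 28.4% under 1 CPM. This count exceeds that of the intervals because a one-sided test at the same level asks less than a two-sided interval. Intervals widened to hold for all genes at once (Bonferroni) lay within 2-fold for 96.0% of genes over 100 CPM, 93.0% at 10 to 100 CPM, 34.1% at 1 to 10 CPM and 0% under 1 CPM. Within 1.5-fold they held 1773 of the 2153 genes over 100 CPM (82.4%) and 3618 of the 6584 at 10 to 100 CPM (55.0%).

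The fitted standard errors also give the change that the test would find with 80% power. At an unadjusted level of 0.05 that change was 1.12-fold for the median gene over 100 CPM, 1.16-fold at 10 to 100 CPM, 1.35-fold at 1 to 10 CPM and 1.74-fold under 1 CPM. If a single gene changed and had to pass a Bonferroni level over 14005 genes, it would need 1.35-fold, 1.48-fold, 2.24-fold and 4.42-fold. The biological coefficient of variation between pools of the same group was 6.6% for the median gene over 100 CPM, 7.73% at 10 to 100 CPM, 12.6% at 1 to 10 CPM and 16.7% under 1 CPM.

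A further 6566 genes had counts but were too rare to be tested, with a median of 10 counts summed over the 10 libraries and 0.0536% of all counts. Fitted without the low-count filter, 6.31% of them had an interval within 2-fold and 38.4% within 4-fold. For the remainder of these rare transcripts the interval still allowed a 4-fold difference or more.

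Above 10 CPM, 124 genes had an interval reaching beyond 1.5-fold, 101 at 10 to 100 CPM and 23 over 100 CPM. The library farthest from the median of the 10 was testosterone replicate 5 for 36 of them (29.0%), control replicate 3 for 22 and control replicate 1 for 15. Replicate 5 was also the farthest for 31.8% of the other 8613 genes above 10 CPM, control replicate 1 for 22.7% and control replicate 3 for 9%. The 30 genes whose interval reached beyond 4-fold, 8 of them under 1 CPM, 20 at 1 to 10 CPM and 2 at 10 to 100 CPM, had another pattern. Testosterone replicate 2 lay farthest above the other libraries in 13 of them and testosterone replicate 1 farthest below in 8, whereas replicate 5 was farthest in 1.

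Testosterone replicate 5 carried fewer reads per gene. The median gene had 8 counts in it under 1 CPM, against 16 in the other testosterone libraries, 47 against 98 at 1 to 10 CPM, 449 against 940 at 10 to 100 CPM and 2245 against 4831 over 100 CPM. A count of 0 occurred there for 2 of the tested genes, both under 1 CPM. Genes seen in all 9 other libraries and absent from replicate 5 numbered 259, where the same count for any other library was 25 to 70. At equal depth it was 48 for replicate 5 and 46 to 77 for the others.

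By the fitted mean and dispersion, counting noise made up 79.9% of the variance of a typical gene in replicate 5 under 1 CPM, 50.5% at 1 to 10 CPM, 23.6% at 10 to 100 CPM and 7.28% over 100 CPM. In the other testosterone libraries these shares were 64.9%, 32.3%, 12.7% and 3.52%. Counting noise equalled the spread between pools at about 3.68 CPM in replicate 5 and at 0.961 to 1.35 CPM in the other 9 libraries. The fit weights each library accordingly, and replicate 5 had 12.6% of the weight of the testosterone mean under 1 CPM, 15.5% at 1 to 10 CPM, 17.9% at 10 to 100 CPM and 19.4% over 100 CPM.

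With every library thinned to the same depth, its median absolute deviation from its group mean remained the highest of the 10 in each class. Over 100 CPM it was 0.088 log2 units, against 0.042 to 0.062 in testosterone replicates 1 to 4 and 0.034 to 0.078 in controls, the highest of which was replicate 1. At 10 to 100 CPM it was 0.11, against 0.066 to 0.081 and 0.058 to 0.094. Under 1 CPM the gap was small, at 0.30 against 0.26 to 0.29 and 0.27 to 0.29. On the first principal component replicate 5 scored 30.2 with all reads and 22.8 after thinning, the highest score in both, whereas the next highest library, control replicate 3, scored 13.5 and 17.7. Control replicate 1 lay at the other end, at -16.3 and -20.0. The quality weight that limma estimates from such deviations was 0.495 for replicate 5 and 0.457 after thinning, the lowest of the 10 in both cases, where the others lay between 0.642 and 2.00 before thinning.

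The standard error of each gene without 1 library was divided by its standard error with all 10, and the median of these ratios was taken in each class. Leaving out testosterone replicate 1, 2, 3 or 4 gave median ratios between 1.07 and 1.11 over the 4 classes. Without replicate 5 the median ratio was 1.04 under 1 CPM, 1.03 at 1 to 10 CPM, 0.994 at 10 to 100 CPM and 0.996 over 100 CPM. Control replicate 1 also had low ratios among abundant genes, 1.04 at 10 to 100 CPM and 1.02 over 100 CPM. Had the spread between pools stayed the same, losing replicate 5 would have given ratios of 1.04, 1.05, 1.05 and 1.06. With the spread held fixed, bringing replicate 5 to the mean depth of the other testosterone libraries would have given ratios of 0.978, 0.986, 0.994 and 0.998 in the same order, that is a gain of a few percent at most and in the rarest genes.

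**Figure D4:**
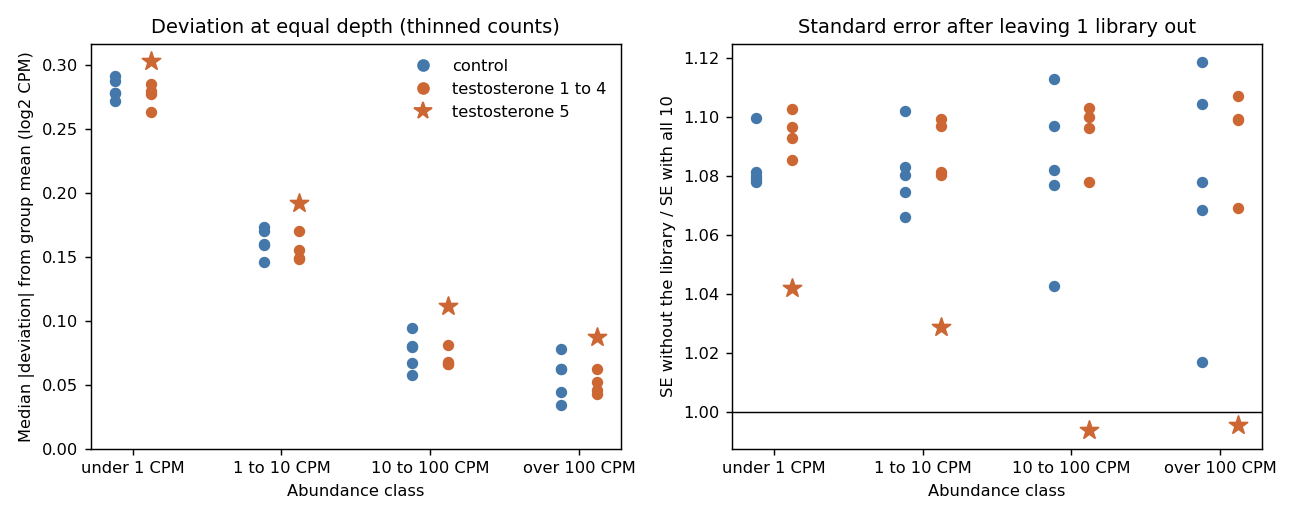
Left, median absolute deviation of each library from its group mean in log2 CPM, with all libraries thinned to the same depth, by abundance class. Right, median over genes of the standard error without that library divided by the same gene's standard error with all 10. Testosterone replicate 5 (star) has the highest deviation in each class and the lowest ratio, 0.994 at 10 to 100 CPM.

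The calls did not turn on it. Without replicate 5, 0 genes passed the threshold (smallest adjusted p 0.998 in edgeR), 528 had an unadjusted p under 0.05, 256 higher and 272 lower, and 11885 had an interval within 1.5-fold. With all libraries thinned to its depth, 0 genes passed, 539 had an unadjusted p under 0.05 and 11111 of 12954 tested genes had an interval within 1.5-fold. The loss from thinning fell on rare genes. At 1 to 10 CPM the count within 1.5-fold went from 3122 to 2501, while over 100 CPM it was 2130 in both. Which genes had an unadjusted p under 0.05 did depend on single pools. Of the 559, 335 kept such a p without replicate 5, 359 to 403 without another testosterone library and 314 to 434 without a control library.

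The identifiers with the smallest p in each direction show what the strongest differences looked like. ENSGALG00000026005 was at 1.89, 1.94, 1.50, 2.37 and 1.50 CPM in control replicates 1 to 5 and at 2.83, 2.77, 3.17, 3.45 and 3.37 CPM in testosterone replicates 1 to 5. Every testosterone pool lay above every control pool, with 44 counts behind the value of replicate 5. The fitted difference was 0.76 ± 0.15 log2 units (SE, 95% interval 0.44 to 1.07), with an edgeR adjusted p of 0.992. ENSGALG00000000154 was at 4.53, 3.96, 4.09, 3.75 and 3.96 CPM in the controls and at 6.41, 4.64, 5.96, 5.43 and 6.58 CPM after testosterone. The pools separated by little, since testosterone replicate 2 was close to control replicate 1, and the fitted difference was 0.51 ± 0.11 log2 units (SE), with the same edgeR adjusted p of 0.992.

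ENSGALG00000015252 was at 46.3, 45.8, 49.4, 45.6 and 45.8 CPM in controls and at 37.7, 42.6, 40.4, 35.8 and 39.0 CPM after testosterone. All testosterone values were below all controls, and the fitted difference was -0.25 ± 0.055 log2 units (SE, 95% interval -0.37 to -0.14), with an edgeR adjusted p of 0.992. Its own interval reached down to 0.773 of the control level, with no adjustment for its choice among 14005 genes. ENSGALG00000046395 was at 14, 12.3, 14.6, 15.6 and 13.9 CPM in controls and at 10.6, 10.1, 11.7, 11.9 and 10.4 CPM after testosterone, a difference of -0.36 ± 0.082 log2 units (SE), again with an edgeR adjusted p of 0.992. The lowest control, replicate 2, was close to the highest testosterone pool, replicate 4. Chosen for their p, these identifiers are the extremes of 14005 genes and none passed the adjusted threshold. Over 24 alternatives each kept its direction, but the fits share libraries and the choice by p made a reversal unlikely beforehand. The alternative that changed only the standard error (Wald) kept the estimates of the main fit by construction. The lowest adjusted p was 0.139 for ENSGALG00000026005 and 0.266 to 0.290 for the other 3, all from DESeq2.

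**Figure D5:**
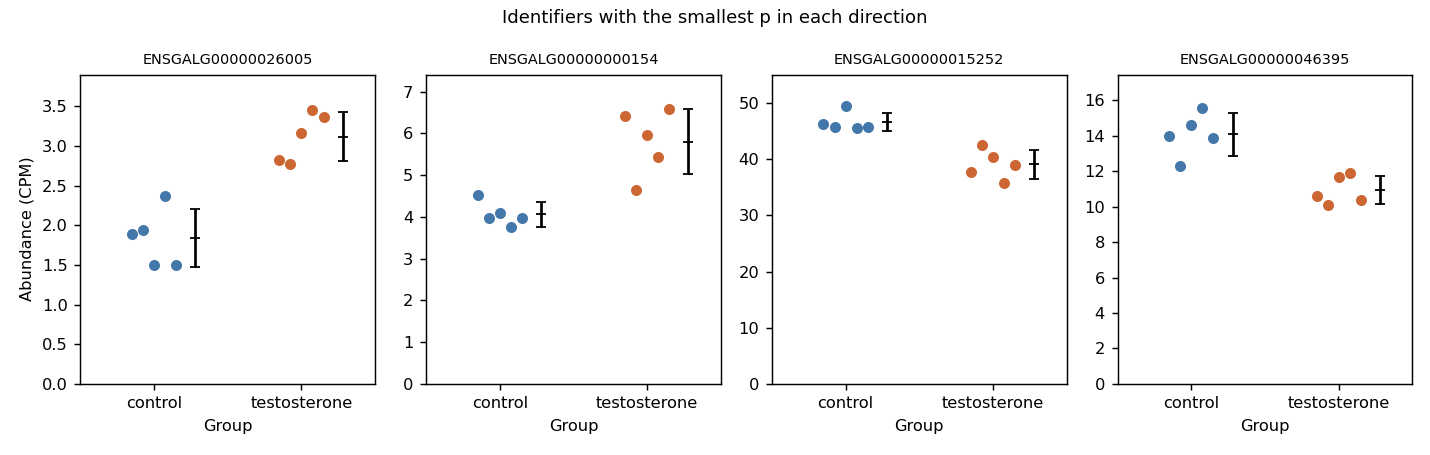
Abundance in CPM of the identifiers with the smallest p in each direction, in control and testosterone libraries (5 points each, with the mean and SD as a bar beside them). The groups do not overlap in any of the 4 panels, and the adjusted p was 0.992 for each.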

How the data were processed

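Raw counts of reads by gene were deposited by the authors in 1 table of 15 libraries, of which 10 were used. The submitters' processing notes list TopHat2 2.0.14 together with HTSeq 0.6.1p1. The kit was strand-specific, per the labels' protocols. No genome build, annotation or counting setting is stated in the sources used here, so overlapping, antisense and near-identical genes could be miscounted. Every library's column was found by its label, and 0 rows named no gene.

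Genes passing edgeR's filterByExpr by group (14005, with 99.946% of counts) were analysed in edgeR 4.0.16 (R 4.3.3) with TMM scaling, trended dispersions and the robust quasi-likelihood F test, with 8 residual degrees of freedom and Benjamini-Hochberg adjustment at 0.05. The fit borrows variance across genes, which adds prior to residual degrees of freedom. The median total was 14.72, with less for 1860 genes. Standard errors were the log2 fold change divided by the root of F, with intervals from the t distribution at each gene's total. Both were tested on counts simulated at the trended dispersion, so genes with a spread away from that trend were not covered. Changes were planted only in the more abundant genes, and no coverage limit was set for genes under 1 CPM. Intervals cover the spread between pools and counting error. Principal components used log2 CPM with a prior count of 2. Thinning was random with a fixed seed. Library values were compared by exact two-sided permutation over 252 assignments.

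Pairs of libraries differed by 7.75 to 28.2 in chi-square per degree of freedom over genes with at least 20 counts, far above sampling noise, so all were kept. The question, the libraries, the tests and the alternatives were chosen with earlier results of these data known. With no symbols, the planned gene lists and markers were not used, and the rule named the 2 identifiers with the smallest p in each direction. Alternatives were run with limma 3.58.1 and DESeq2 1.42.0 among others.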

Additional observations from a re-analysis of the deposited data

Results flagged for a closer look

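Among 40 sets of 5 library values or identifier levels, 4 had a library far from the other 4 of its group, where chance gives about 2. Testosterone replicate 5 had the lowest total, 12913729 counts, and the fewest genes detected, 17032. Its count of genes was not apart at equal depth. Control replicate 2 had a low median absolute deviation from its group mean among genes under 1 CPM, 0.2145 log2 units. It was the deepest library, with 33795073 counts. At equal depth its deviation was 0.2723, against 0.2783 to 0.2919 in the other controls. Control replicate 3 had a high level of ENSGALG00000015252, 49.4 CPM.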

How the results depend on the processing

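The count of 0 genes past the threshold held in all 24 alternatives run. The count at an unadjusted p under 0.05 was 405 to 978, and it left the range of 1.5 times the 559 of the report only with limma voom and sample quality weights, which gave 978 and a smallest adjusted p of 0.689. Leaving out 1 library gave 406 to 830 genes. Counts of genes with an interval within 1.5-fold over all genes ran from 10768 (99% interval) to 12111, and above 1 CPM each class stayed within 1.5 times its value. The share depended on which genes were tested. Against 85.4% of 14005 genes, it was 58% of 20571 with no low-count filter and 93.3% of 12605 with the stricter filter.

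Genes under 1 CPM with an interval within 1.5-fold were the exception. Against 222 of 1426 genes, there were 13 of 44 with the stricter filter (a mean count of 20 and 1 CPM or more in 5 libraries). After thinning there were 11 of 367. Both settings thus left fewer genes in that class to be tested. DESeq2 gave 38, the replicate block 117 and a 99% interval 9. There were 94 without testosterone replicates 2 and 5 together and 104 to 187 with 1 library left out. Apart from the filter and the 99% interval, the cause was not tested. The Wald standard error, chosen after seeing the data, gave 209.

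A fit with the replicate block had 405 genes at an unadjusted p under 0.05, and 0 passed the threshold. Deviations of same-numbered control and testosterone libraries correlated between -0.193 and 0.005, 0 of 5 over 0.1. Of the controls, 0 of 5 correlated best with its own number. The labels give no batch, and these correlations cannot show whether same-numbered pools shared a day or a preparation. Thinning took the count within 1.5-fold from 3122 to 2501 genes at 1 to 10 CPM and left it at 2130 over 100 CPM.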
